A study of Rattus norvegicus with 9 samples.

Results

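Conjugating enzymes make drugs, hormones, bilirubin and reactive metabolites more water-soluble by attaching glutathione (glutathione S-transferases, GST), glucuronic acid (UDP-glucuronosyltransferases, UGT) or sulfate (sulfotransferases, SULT). The members described here were all probe sets whose annotation gave exactly 1 gene symbol and whose symbol was Gst followed by a class letter and a digit, or Ugt or Sult followed by a digit. The rule used names only and no measured value. It found 32 probe sets of 32 genes, 19 GST, 7 UGT and 6 SULT, among 36685 probe sets, of which 14824 carried 1 symbol. Another 3 probe sets carried several symbols of these families (Gsta5 and Gsta2, Ugt2b37 and Ugt2b15, and Sult1e1 given as a repeat) and were not members. No gene of the Ugt1, Sult2 or Gstz classes was a member. Nor were Gstm1, Gsta3, Gstp3, Ugt2a1 and Ugt2b7, which lie next to members in the genome. Counts by family therefore cover the members only and not the whole families.

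RNA was profiled on Affymetrix Rat Gene 2.1 ST arrays in whole livers of Sprague Dawley pups given CSF1-Fc (n = 4) or phosphate-buffered saline (PBS, n = 2) and in bone marrow-derived macrophages (BMDM, n = 3). CSF1-Fc is porcine colony-stimulating factor 1, the growth factor of macrophages, joined to an antibody Fc region. Pups were injected once a day for 5 days from birth, and livers were taken on day 6. Every pup in both liver groups was born to a dam that had itself been injected with PBS late in pregnancy and was then reared by a foster dam. The BMDM came from Dark Agouti rats and were grown in CSF1 for 7 days, so that cell type, strain and culture cannot be told apart in any comparison with liver. Values are log2 expression from robust multi-array averaging (RMA), and a change was called where the adjusted p of limma, Benjamini-Hochberg over all 36685 probe sets, was under 0.05. Replicate numbers were given by the labels without saying whether pups shared a litter or BMDM a donor, so the p-values measure only the spread between these samples.

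Most GST, UGT and SULT genes of the liver are read most strongly in hepatocytes. Many of them are induced through receptors for foreign compounds, the pregnane X receptor (Nr1i2), the constitutive androstane receptor (Nr1i3) and the aryl hydrocarbon receptor, or through the oxidant-sensing factor NRF2. In rodents several conjugating enzymes are low at birth and rise as the liver matures, and in the rat Gstp1 is low in adult hepatocytes and is a classical marker of preneoplastic foci. Alpha and mu GSTs handle products of lipid peroxidation and many electrophiles, theta GSTs small halogenated compounds, and the omega class reduces dehydroascorbate. The members fall partly into gene clusters. In the RefSeq annotation Gstm5, Gstm7, Gstm6, Gstm3, Gstm2 and Gstm4 lie along chromosome 2, Gstt2, Gstt4, Gstt1 and Gstt3 along chromosome 20, and Sult1d1, Sult1b1 and the UGT2 genes along chromosome 14. Probes of such close relatives can share signal, so values of single paralogs are uncertain to that extent.

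Promoters of 4 members are shown because Gstm7 and Gstt3 were the members that passed the test between the livers, Gstm4 is a bright Gstm7 paralog whose liver arrays overlapped between the groups, and Gstp1 was the member highest in BMDM relative to liver. Each is 250 bases before to 50 bases after the annotated start, 5′ to 3′ on the gene's strand, from RefSeq (build GRCr8): Gstm7 at chr2:198260270-198260569 (minus strand), Gstt3 at chr20:12874368-12874667 (plus strand), Gstm4 at chr2:198373334-198373633 (minus strand) and Gstp1 at chr1:210769656-210769955 (minus strand). Capitals mark TGACNNNGC, the core letters of the antioxidant response element that NRF2 binds, and GCGTG, the xenobiotic response element core of the aryl hydrocarbon receptor (CACGC on the other strand).
Gstm7: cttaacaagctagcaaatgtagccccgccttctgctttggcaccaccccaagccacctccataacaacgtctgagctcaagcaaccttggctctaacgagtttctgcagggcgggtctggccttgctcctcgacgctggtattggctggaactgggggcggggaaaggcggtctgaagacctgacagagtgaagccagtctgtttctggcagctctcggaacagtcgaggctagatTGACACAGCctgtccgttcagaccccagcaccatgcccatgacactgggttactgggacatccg
Gstt3: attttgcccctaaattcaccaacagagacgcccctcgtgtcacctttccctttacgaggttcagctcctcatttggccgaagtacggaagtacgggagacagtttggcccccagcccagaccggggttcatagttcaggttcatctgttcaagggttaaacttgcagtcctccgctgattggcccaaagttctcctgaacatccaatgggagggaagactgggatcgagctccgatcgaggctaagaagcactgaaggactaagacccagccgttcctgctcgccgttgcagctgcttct
Gstm4: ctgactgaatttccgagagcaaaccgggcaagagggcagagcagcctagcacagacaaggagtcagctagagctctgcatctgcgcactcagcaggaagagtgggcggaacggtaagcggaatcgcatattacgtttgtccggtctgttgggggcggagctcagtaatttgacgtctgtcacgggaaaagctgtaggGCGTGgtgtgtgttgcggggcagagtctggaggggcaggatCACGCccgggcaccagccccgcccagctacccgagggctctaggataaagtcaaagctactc
Gstp1: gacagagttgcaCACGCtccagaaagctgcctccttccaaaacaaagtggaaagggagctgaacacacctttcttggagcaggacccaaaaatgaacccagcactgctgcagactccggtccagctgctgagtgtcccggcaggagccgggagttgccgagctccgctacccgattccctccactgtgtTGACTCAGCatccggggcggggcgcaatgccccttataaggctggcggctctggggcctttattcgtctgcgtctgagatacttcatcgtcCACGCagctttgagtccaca
Gstm7 held 1 antioxidant response element, TGACACAGC, with its first base at position -14 from the start. Gstp1 held TGACTCAGC at position -61 and 2 xenobiotic cores, Gstm4 held 2 xenobiotic cores at positions -53 and -12, and Gstt3 held neither motif. Over both strands, TGACNNNGC was in 5 of the 32 promoters that the table held for 30 member genes (Gsta1, Gsta2, Gstm5, Gstm7 and Gstp1), beside 12.1% of all 33469 promoters, and GCGTG was in 9 of them, for 8 genes, beside 29.7%. In Gstm5 an antioxidant response element at position -113 overlapped a xenobiotic core at -109. A match is a description of letters and not of a bound site. Gstt1 and Gstt2 were not in the promoter table.

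Array medians lay between 3.75 and 3.87. On all 9 arrays Gsta4l1, Gstm6, Gstt4, Sult1c2al1, Sult1d1, Sult5a1, Sult6b1, Ugt3a1 and Ugt8 lay below the median, so 9 of the 32 members were dim throughout, and no detection call was used. Pearson correlations over all probe sets between PBS liver 2 and the other livers were 0.951 to 0.962, and those among the other livers 0.971 to 0.985. The 9 measured hepatocyte markers of a list of 12 averaged 11.5 to 11.96 on CSF1-Fc liver arrays, 11.74 to 11.92 on PBS liver arrays and 3.68 to 3.97 on BMDM arrays. The 11 measured macrophage markers of 12 averaged 10.18 to 10.34 in CSF1-Fc liver, 8.08 to 8.43 in PBS liver and 6.94 to 7.48 in BMDM. The BMDM mean joins opposite differences. Against PBS liver, Cd68, Cd14, Fcgr1a and Adgre1 were called higher in BMDM (4 of 11, beside 10.2% of all probe sets). C1qa, C1qb, C1qc, Marco, Vsig4 and Timd4 were called lower (6 of 11, beside 10.4%).

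Between the livers, 2 members were called and both were lower with CSF1-Fc, the mu-class Gstm7 and the theta-class Gstt3. That was 2 of 32, beside 0.254% of all probe sets called lower, and no member was called higher, beside 1.22% of all probe sets. In mean, 25 of the 32 members were lower with CSF1-Fc and 7 were higher, and the median member difference was -0.44 beside -0.03 over all probe sets. For 15 of the 32 members (46.9%) every CSF1-Fc liver was below both PBS livers, beside 10.4% of all probe sets, and for none was every CSF1-Fc liver above, beside 10.3%. At an unadjusted p under 0.05, 12 members were lower, beside 6.4% of all probe sets, and 0 were higher, beside 7.31%. The GST genes made up most of this, with 11 of 19 not overlapping and a median of -0.60, against 2 of 7 UGT (median -0.40) and 2 of 6 SULT (median -0.25). Brightness differed too. Of the 9 members below the array median on all arrays, which include most SULT members, 1 did not overlap (median -0.10). Of the other 23 members 14 did not overlap (median -0.60). The shares of all probe sets include dim ones. Whether these families differed from each other, or only in brightness, was not tested.

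Gstm7 was 7.68, 7.97, 7.81 and 7.84 in CSF1-Fc livers 1 to 4 and 9.69 and 9.35 in PBS livers 1 and 2. The groups were separated by more than their own spread. Gstm7 was lower by 3.24-fold (log2 difference -1.70, SE 0.15, 95% interval -2.07 to -1.32, limma adjusted p = 0.0134). Without PBS liver 1 and PBS liver 2 its log2 difference was -1.53 and -1.865. With 1 PBS array left the fit takes no spread from that group, so a kept call there says little. The call was lost when any 1 CSF1-Fc liver was left out, with an adjusted p between 0.0587 and 0.0720. The log2 difference then stayed between -1.75 and -1.65. With 3 CSF1-Fc livers and 2 PBS livers no probe set of the 36685 passed, the macrophage markers included, whichever CSF1-Fc liver was left out, with a lowest adjusted p of 0.0544.

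Gstt3 was 6.51, 6.29, 6.43 and 6.31 in CSF1-Fc liver and 7.24 and 7.19 in PBS liver, with no overlap and little spread in either group. It was lower by 1.78-fold (log2 difference -0.83, SE 0.13, 95% interval -1.14 to -0.53, limma adjusted p = 0.0409). This call rested on more choices than that of Gstm7. Beside that loss with any CSF1-Fc liver left out (adjusted p = 0.0979 to 0.143), it was lost without PBS liver 2 (0.0768), in a fit of all 9 arrays (0.446) and when each array was centred on the hepatocyte markers (0.326), while the log2 difference in these settings was -0.86, -0.83 and -0.73.

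**Figure D1:**
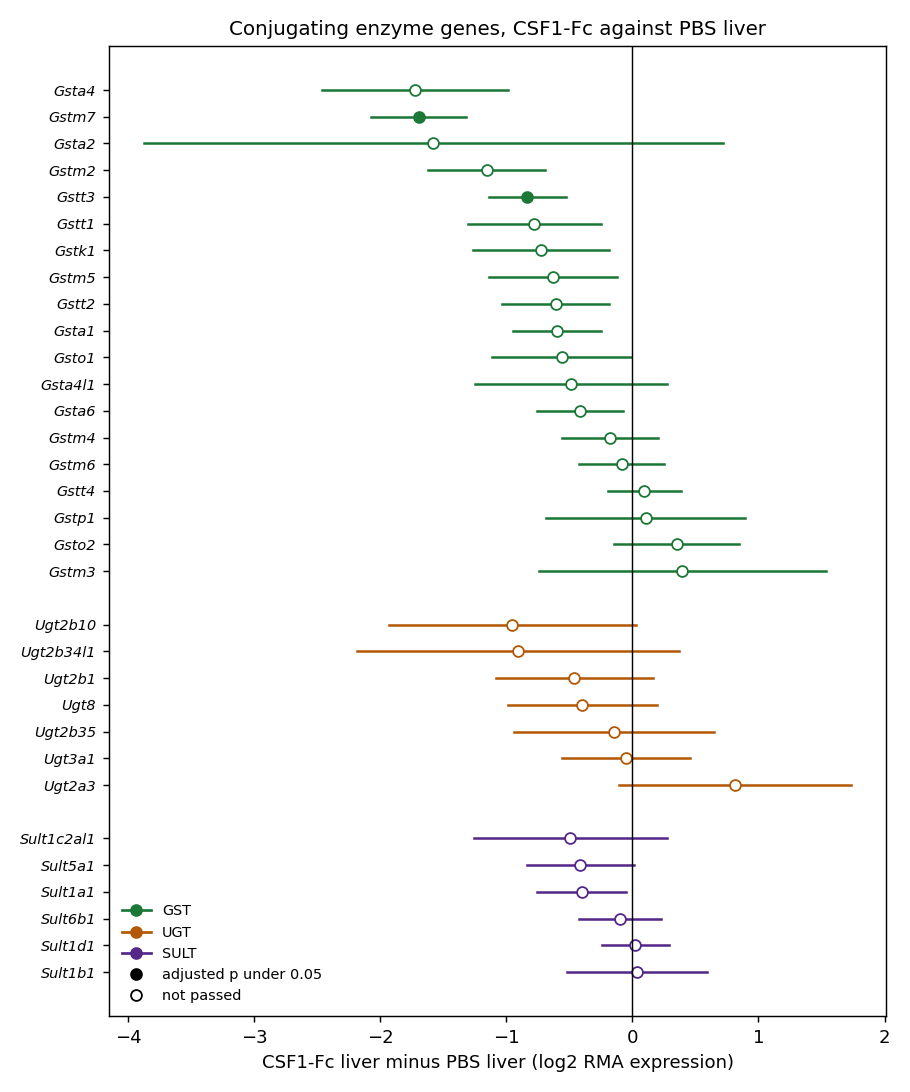
Difference between CSF1-Fc and PBS liver for each of the 32 members (x axis, log2 RMA expression; points, differences; lines, 95% intervals of the limma fit; filled, adjusted p under 0.05). Gstm7 at -1.70 and Gstt3 at -0.83 are the filled points, and the interval of Gsta2 is the widest, from -3.87 to 0.72.

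The other members of the mu class ranged from -1.16 to 0.40 in log2 difference. Gstm2 was 5.83, 6.38, 5.93 and 6.06 in CSF1-Fc liver and 7.07 and 7.35 in PBS liver, a log2 difference of -1.16 (SE 0.19, 2.23-fold) that did not overlap and missed the threshold (limma adjusted p = 0.0534). Gstm5 was 4.89, 5.36, 4.95 and 5.23 against 5.98 and 5.50, also without overlap (log2 difference -0.63, adjusted p = 0.259). Gstm4, at the far end of the same cluster, was 7.70, 7.68, 7.49 and 7.61 against 7.59 and 8.0, and these overlapped (log2 difference -0.18, 95% interval -0.56 to 0.21). Gstm3 was 4.12, 3.08, 4.70 and 3.55 against 3.11 and 3.82, with both groups widely spread (log2 difference 0.40, adjusted p = 0.753), and Gstm6 was dim throughout. Within single arrays, the log2 difference of Gstm7 minus Gstm4 was -0.02, 0.30, 0.31 and 0.24 in CSF1-Fc livers 1 to 4 and 2.1 and 1.35 in PBS livers 1 and 2. For Gstt3 minus Gstt2 it was -2.01, -2.09, -1.71 and -2.37 against -1.82 and -1.83, and these values overlapped. Gstm2 minus Gstm4 was -1.87 to -1.30 in CSF1-Fc liver and -0.66 and -0.52 in PBS liver, and Gsta4 minus Gsta1 was -2.59 to -2.45 against -1.85 and -0.93. The pairs were chosen after values were seen and given no test, and different probes do not compare levels between genes, only how far a pair moved apart.

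The alpha class was lower in mean for all 5 measured genes, with a median of -0.60 and no call. Gsta4, which conjugates the lipid peroxidation product 4-hydroxynonenal, was 5.16, 5.16, 4.95 and 5.38 in CSF1-Fc liver and 6.34 and 7.42 in PBS liver. The log2 difference of -1.72 was as large as that of Gstm7, but the 2 PBS livers were over 1 log2 unit apart and the call was missed (SE 0.30, 95% interval -2.46 to -0.99, limma adjusted p = 0.0618). It was -2.26 (adjusted p = 0.0264) without PBS liver 1 and -1.18 (adjusted p = 0.0770) without PBS liver 2. Gsta1 was 7.75, 7.63, 7.49 and 7.83 against 8.19 and 8.35, again without overlap (log2 difference -0.60, SE 0.15, adjusted p = 0.137), and Gsta6 was 6.16 to 6.42 against 6.56 and 6.73 (log2 difference -0.42). Gsta2, a major alpha subunit of rat liver, split the treated pups: it was 7.31 and 7.04 in CSF1-Fc livers 1 and 4 but 5.11 and 4.18 in CSF1-Fc livers 2 and 3, against 7.98 and 7.00 in PBS liver. Its 95% interval ran from -3.87 to 0.72, so neither a large fall nor no change was told apart at this number of arrays.

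Of the 3 other theta genes, 2 were lower in every CSF1-Fc liver. Gstt1 was 6.01, 6.24, 5.88 and 5.99 against 6.48 and 7.14 (log2 difference -0.78, limma adjusted p = 0.186), and Gstt2 was 8.52, 8.38, 8.14 and 8.68 against 9.06 and 9.02 (log2 difference -0.61, adjusted p = 0.198). Neither passed, and Gstt4 was dim on all arrays. Gstk1, the kappa enzyme of mitochondria and peroxisomes, was 9.68, 9.64, 9.34 and 9.68 against 9.97 and 10.65 (log2 difference -0.72, adjusted p = 0.226). Gsto1, of the omega class, was 9.93, 9.99, 9.84 and 9.94 against 10.09 and 10.89 (log2 difference -0.56, adjusted p = 0.357), and most of the distance came from PBS liver 2. Without PBS liver 1 the members called lower were 6, namely Gsta4, Gstk1, Gstm7, Gsto1, Gstt1 and Gstt3, beside 3.43% of all probe sets called lower in that setting, and without PBS liver 2 only Gstm7 was called, beside 0.292%.

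Gstp1 and Gsto2 were GST genes that were not lower. Gstp1 was 6.80, 6.70, 6.84 and 6.48 in CSF1-Fc liver, between the PBS values of 6.01 and 7.19 (log2 difference 0.10, 95% interval -0.68 to 0.89). Gsto2 was 3.28, 3.05, 3.62 and 3.45 against 2.81 and 3.19 (log2 difference 0.35, 95% interval -0.14 to 0.85), below the array median in all 6 livers.

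**Figure D2:**
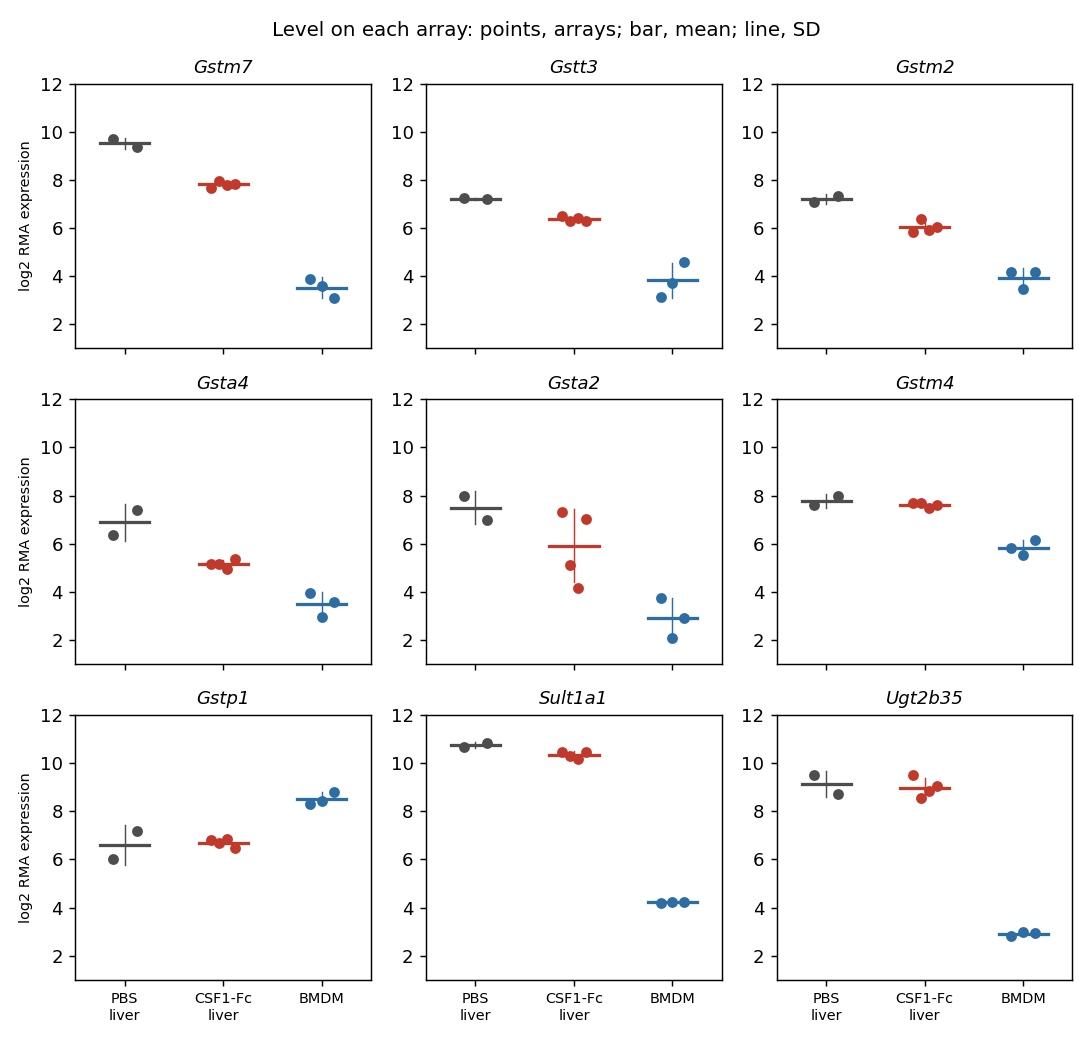
Level of 9 members on each array (y axis, log2 RMA expression; points, arrays; bars, means; vertical lines, SD). Gstm7, Gstt3, Gstm2 and Gsta4 are lower in each of the 4 CSF1-Fc livers than in either PBS liver, Gstm4 overlaps, Gsta2 is spread from 4.18 to 7.31 in CSF1-Fc liver, and Gstp1 is the one of the 9 that is highest in BMDM.

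None of the 7 UGT members, which include no Ugt1 gene, was called between the livers. The UGT2B enzymes, which glucuronidate steroids and many drugs, were bright and varied between pups. Ugt2b10 was 6.69, 6.76, 5.95 and 6.93 in CSF1-Fc liver and 8.12 and 6.95 in PBS liver (log2 difference -0.95, SE 0.40, limma adjusted p = 0.380), so that PBS liver 2 lay just above the highest CSF1-Fc liver. Ugt2b34l1 was 8.61, 7.46, 8.69 and 8.24 against 9.95 and 8.36, with overlap (log2 difference -0.91, adjusted p = 0.515). Ugt2b1 was 8.44, 8.46, 7.74 and 8.50 against 8.91 and 8.58 (log2 difference -0.46, adjusted p = 0.50), and Ugt2b35 was 9.51, 8.55, 8.84 and 9.05 against 9.52 and 8.74 (log2 difference -0.15, adjusted p = 0.886). Of these 4 genes, the PBS livers were further apart than the group means in all but Ugt2b1. The values rested on which PBS liver was kept: without PBS liver 1 and PBS liver 2 the log2 differences were -0.36 and -1.54 for Ugt2b10 and -0.11 and -1.70 for Ugt2b34l1, and the sign turned for Ugt2b35 (0.25 and -0.54). Ugt2a3 was the member with the largest difference in the other direction, at 4.72, 3.71, 4.45 and 4.56 against 4.05 and 3.04, with overlap (log2 difference 0.81, 95% interval -0.11 to 1.73, adjusted p = 0.430). It was 1.32 without PBS liver 1 and 0.31 without PBS liver 2. Ugt3a1 and Ugt8, the latter the galactosyltransferase that makes the myelin lipid galactosylceramide, were dim on every array.

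None of the 6 SULT members, which include no Sult2 gene, was called either. Sult1a1, the phenol sulfotransferase, was 10.46, 10.31, 10.16 and 10.46 in CSF1-Fc liver and 10.67 and 10.83 in PBS liver, which did not overlap (log2 difference -0.40, SE 0.15, limma adjusted p = 0.299). Sult1b1, which sulfates thyroid hormones, was 6.87, 6.52, 6.61 and 6.97 against 6.39 and 7.02 (log2 difference 0.04, 95% interval -0.52 to 0.59). The remaining 4 were dim, among them Sult5a1, at 2.0 to 2.32 in CSF1-Fc liver and 2.40 and 2.80 in PBS liver. Sult1d1 had the same value, 1.55, on 6 of the 9 arrays, and 7 members in all repeated a value exactly on 2 or more arrays.

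In whole liver, fewer cells of a type and less RNA per cell cannot be told apart. Beside these differences, none of the 9 hepatocyte markers was called and their median difference was -0.10 (range -0.29 to 0.15). By contrast, 11 of 11 macrophage markers were called higher (median 1.94), beside 1.22% of all probe sets. Of 9 measured neutrophil markers (median -1.82) 0 were called. At an unadjusted limma p under 0.05, 6 were lower, beside 6.4% of all probe sets. Their array means were 5.03 to 6.05 in CSF1-Fc liver and 6.82 to 7.43 in PBS liver. A list of bile duct and mesenchymal markers, which also held the endothelial gene Stab2, had 9 measured genes. Of these, 2 were called lower, Dcn and Lum (log2 differences -1.35 and -2.17), beside 0.254% of all probe sets. All 9 were lower in mean (median -0.41), and the other 7 overlapped between the groups. The call of Dcn was lost without any 1 of the 6 livers (adjusted p = 0.0513 to 0.12). Of 7 erythroid markers 0 were called. The part of these shifts in the enzyme values was not tested. With each array centred on its hepatocyte markers, Gstm7 and Gsta4 were the members called, beside 0.136% of all probe sets called lower, and the members below both PBS livers in every CSF1-Fc liver were 9 of 32, beside 4.01% of all probe sets.

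**Figure D3:**
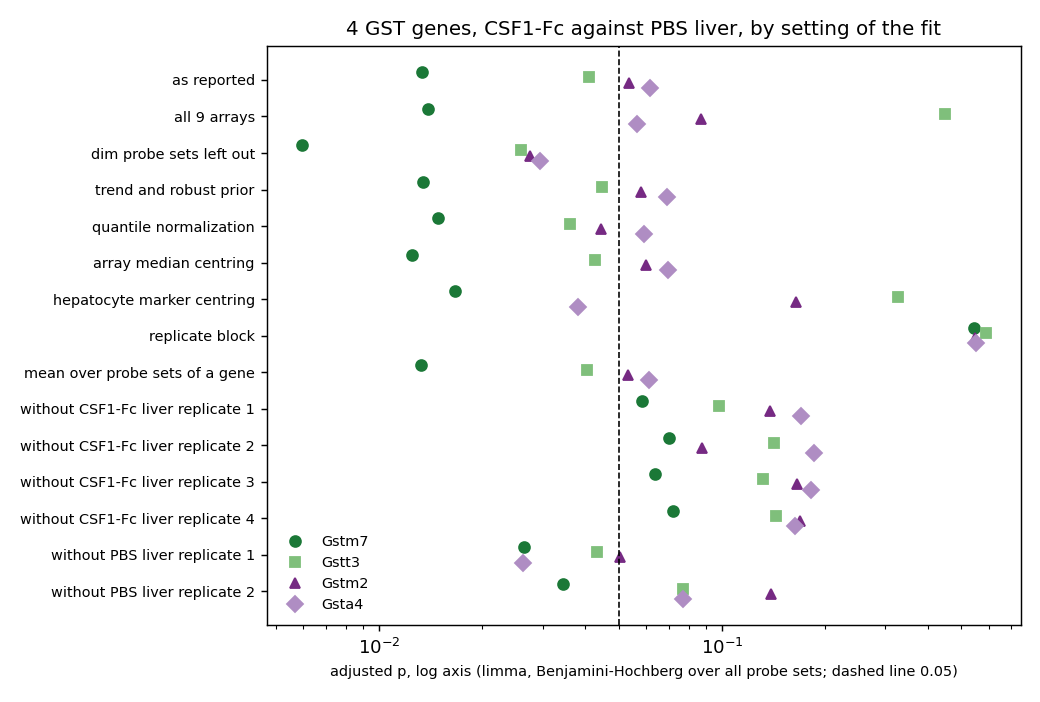
Adjusted p of 4 GST genes between CSF1-Fc and PBS liver under each setting of the limma fit (x axis, log scale; dashed line, 0.05; points of 1 setting are set slightly apart). Gstm7 lies left of the line as reported (0.0134) and without either PBS liver, where the 1 PBS array left adds no spread. It lies right of the line when any CSF1-Fc liver is left out or the replicate number is a block, settings in which 0 of all probe sets passed.

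Genes that control or feed conjugation were followed in fixed lists. Of 9 measured sensors and liver factors 0 were called, and the median difference was -0.16. In mean 7 were lower and 2, Arnt and Rxra, were higher, both with overlap (log2 differences 0.26 and 0.14). The pregnane X receptor gene Nr1i2 was 8.39, 8.10, 8.31 and 8.44 in CSF1-Fc liver and 9.11 and 8.93 in PBS liver, without overlap (log2 difference -0.71, SE 0.15, limma adjusted p = 0.0946), and Nr1i3 was 6.42 to 6.60 against 6.88 and 7.39 (log2 difference -0.64, adjusted p = 0.168). Of 11 measured NRF2 target genes, 0 were called lower with CSF1-Fc (beside 0.254% of all probe sets) and 2 higher (beside 1.22%). These were Hmox1, which degrades heme (8.47, 8.59, 8.50 and 8.51 against 7.06 and 7.30, log2 difference 1.33, adjusted p = 0.0135), and Me1, malic enzyme, a source of NADPH (6.71, 7.33, 7.67 and 6.98 against 5.20 and 5.33, log2 difference 1.90, adjusted p = 0.0369). Without PBS liver 1 or 2 the call of Me1 was lost as well (adjusted p over all single-array omissions 0.0611 to 0.136), and in the fit of all 9 arrays its adjusted p was 0.0513. The quinone reductase Nqo1, of the same list, was 5.57 to 5.92 against 6.40 and 6.98 (log2 difference -0.95, adjusted p = 0.104), and the list's median was -0.07. Txnrd1, also listed, was 6.31 to 6.38 against 6.11 and 5.55 (log2 difference 0.53, limma adjusted p = 0.265). Without overlap, 3 of the 11 were lower and 3 higher, beside 10.4% and 10.3% of all probe sets. Hmox1 is also expressed by macrophages and Me1 also serves fatty acid synthesis.

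Of 12 measured genes that supply glutathione, UDP-glucuronate and active sulfate, 0 were called, with a median of -0.08. Cth, which makes cysteine for glutathione, was 9.97, 9.94, 10.23 and 10.06 against 10.68 and 10.77, without overlap (log2 difference -0.67, limma adjusted p = 0.0877). Papss1 was instead higher without overlap, at 6.99 to 7.46 against 6.79 and 6.62 (log2 difference 0.47, adjusted p = 0.304). Of the 12, 4 were lower and 1 higher without overlap, beside 10.4% and 10.3% of all probe sets. Of 12 measured other conjugating and hydrolysing enzymes 0 were called, with a median of -0.21. Among them the microsomal glutathione transferases Mgst3 and Mgst1 had log2 differences of -0.75 and -0.55 (adjusted p = 0.161 and 0.279). Sts went the other way, with a log2 difference of 0.62 (adjusted p = 0.280). Of these 12 genes, 3 were lower and 1, Sts, was higher without overlap, near the shares of all probe sets for higher (10.3%) and above them for lower (10.4%).

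BMDM were set against liver to see which members cultured macrophages carry. Against CSF1-Fc liver 24 of the 32 members were called, 20 lower (beside 17.5% of all probe sets) and 4 higher (beside 19.9%), with a median of -1.73 beside 0.14 over all probe sets. Against PBS liver 18 were lower (beside 10.4%) and 2 higher (beside 10.2%), with a median of -2.14 beside 0.12. These comparisons share the BMDM arrays. In BMDM 17 of 32 members lay below the array median on all 3 arrays, and 10 of 32 did so on all 6 livers. The median splits the probe sets of each array evenly, and the share of all probe sets below it throughout is not given. The count in BMDM alone therefore does not mark the members as low.

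The bright liver enzymes made up the largest differences. Sult1a1 was 4.21, 4.21 and 4.22 in BMDM and 10.16 to 10.46 in CSF1-Fc liver (log2 difference -6.13, SE 0.14, 70.1-fold, limma adjusted p = 2.12e-07). Ugt2b35 was 2.84, 3.00 and 2.93 in BMDM against 8.55 to 9.51 (log2 difference -6.06, 66.9-fold, adjusted p = 1.27e-06), and Ugt2b1 was 3.02, 2.77 and 3.66 (log2 difference -5.14, 35.2-fold). Ugt2b10, Ugt2b34l1, Gstk1, Gstm7 and Gstt2 followed, with log2 differences between -4.49 and -4.25, and Sult1b1 was at -3.88 (14.8-fold). In BMDM Ugt2b35, Ugt2b1, Ugt2b10 and Sult1b1 lay below the array median on all 3 arrays and Gstm7 on 2. Sult1a1, at 4.21 to 4.22, lay only a little above BMDM medians of 3.77 to 3.81. The folds of these genes compare a bright signal with a dim one. No detection call was used, so the size of these folds is uncertain. All 5 UGT2 genes and the kappa gene were lower, as were 3 of 4 theta, 3 of 5 alpha and 4 of 6 mu genes.

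Not every GST gene was low in macrophages. Gstp1 was 8.31, 8.44 and 8.82 in BMDM, above every liver (log2 difference from CSF1-Fc liver 1.82, SE 0.17, 3.53-fold, limma adjusted p = 0.000119). Against PBS liver it was 1.92 (adjusted p = 0.0229), a call lost without PBS liver 1 and without any one BMDM array (adjusted p = 0.0632 to 0.0980). Gsto2 was 4.74, 4.22 and 4.74 in BMDM, again above every liver (log2 difference from CSF1-Fc liver 1.21, SE 0.20, adjusted p = 0.00224). From PBS liver it was 1.57 (adjusted p = 0.0153), a call lost without either PBS liver or BMDM 1 (adjusted p = 0.0579 to 0.102). Gsto1, its neighbour in the genome, stayed bright in BMDM at 8.38, 8.29 and 8.61, yet lower than in CSF1-Fc liver (log2 difference -1.50, adjusted p = 9.27e-05). Among members lower in BMDM than in PBS liver, the call of Gstt3 was lost without PBS liver 1 or 2 (adjusted p = 0.0530 and 0.0522) and that of Gstm4 without PBS liver 2 (0.0643).

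Gsta1 was 8.0, 7.01 and 5.87 in BMDM, more widely spread than in liver, and did not pass against CSF1-Fc liver (log2 difference -0.71, 95% interval -1.74 to 0.31). Gstm4, with 5.82, 5.54 and 6.16, remained above the array median in BMDM while Gstm7, with 3.90, 3.60 and 3.08, did not on 2 of 3 arrays. The call of Gsta2 against CSF1-Fc liver (log2 difference -2.99, limma adjusted p = 0.0213) was lost without CSF1-Fc liver 4, BMDM 2 or BMDM 3 (adjusted p = 0.0538 to 0.0741). The other 2 members called higher, Sult1c2al1 (log2 difference 1.20) and Sult6b1 (0.78), and Ugt8, called lower (-0.52), were below the array median on all arrays. The call of Sult1c2al1 was lost without any one CSF1-Fc liver, without BMDM 1 or 2 and after quantile normalization (adjusted p = 0.0582 to 0.125), and that of Ugt8 without CSF1-Fc liver 1, 2 or 3 or BMDM 1 or 2 and in the fit of all 9 arrays (adjusted p = 0.0524 to 0.0913).

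**Figure D4:**
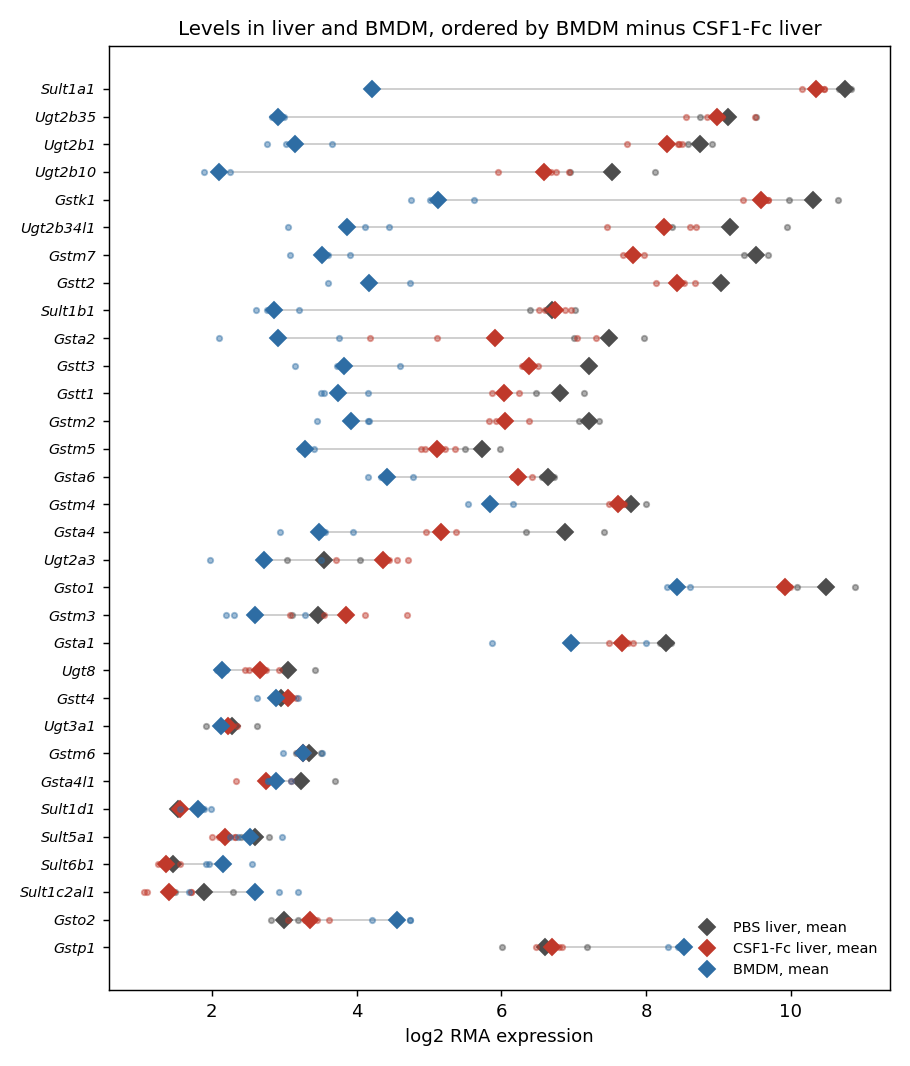
Levels of the 32 members in PBS liver, CSF1-Fc liver and BMDM (x axis, log2 RMA expression; small points, arrays; diamonds, group means), ordered by the BMDM minus CSF1-Fc liver difference. Sult1a1 and Ugt2b35, at the top, are over 6 log2 units lower in BMDM, and Gstp1, at the bottom, is 1.82 higher.

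Among the listed genes, BMDM and liver also differed in regulators and targets. Against CSF1-Fc liver 7 of 9 sensors and liver factors were called lower, beside 17.5% of all probe sets. Of the 9, 1 was called higher, beside 19.9%, namely Nfe2l2, which encodes NRF2 (log2 difference 1.55). Of the 11 NRF2 target genes 4 were called higher (beside 19.9% of all probe sets) and 6 lower (beside 17.5%). The list's median was -1.16. Those higher were Slc7a11 (log2 difference 4.84), Nqo1 (3.01), Txnrd1 (1.30) and Hmox1 (0.87). Those lower were Ephx1 (-6.45), Osgin1 (-2.57), Gclm (-1.72), Gclc (-1.33), Akr7a3 (-1.28) and Me1 (-1.16). The cofactor genes were called lower in 8 of 12, with Cth at -6.48, and the other conjugating enzymes in 8 of 12. Both stand beside the 17.5% of all probe sets called lower.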

How the data were processed

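The labels gave the groups, CSF1-Fc liver (n = 4), PBS liver (n = 2) and BMDM (n = 3). Per the study's methods, intact liver RNA was hybridized to Rat Gene 2.1 ST arrays, quality was checked in Affymetrix Expression Console, and RMA in R, through the Transcription Analysis Console, gave the normalized values. The authors deposited log2 values, which were taken without further normalization. Whether all 9 arrays were normalized together is not stated, and the RNA steps are stated for liver only. The number of arrays limits the precision.

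The groups of each comparison were fitted alone in limma 3.58.1 (lmFit, eBayes) under R 4.3.3, and p-values were adjusted by Benjamini-Hochberg across all 36685 probe sets (threshold 0.05). Summaries and plots used Python 3.11.15, numpy 2.4.6, pandas 2.3.3, scipy 1.17.1 and matplotlib 3.10.9. The fits were tested on simulated data. Symbols came from the platform annotation, where 829 probe sets had several symbols and 21032 had none. All 32 members matched RefSeq by gene ID, which was used for neighbours and promoters only.

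The members and gene lists were chosen with earlier results of these data known. Members named by rule were those called between the livers and up to 3 largest falls and rises of each family there. From BMDM against CSF1-Fc liver they were the 3 lowest of each family and up to 3 called higher. BMDM against PBS liver was not used for this. Of the gene lists, genes called between the livers were named by rule, and the others named are a selection. The other members given with values, and the pairs within arrays, were added after values were seen. As alternatives, all 9 arrays were fitted together, dim probe sets were dropped, the prior was given a trend and made robust, arrays were quantile normalized or centred on their median or on hepatocyte markers, probe sets of a gene were averaged, the replicate number served as a block, and single arrays were omitted.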

Additional observations from a re-analysis of the deposited data

Results flagged for a closer look

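Among the 32 members, 4 had 1 of the 4 CSF1-Fc livers set apart from the other 3, by the ratio of its gap to the nearest array over the range of the group, compared with the 95% critical value for 4 samples. Chance alone sets apart about 1 group in 20 at this level, if values are normal and independent. The share over all probe sets is not given, so these 4 do not mark the members as unusual. Gstk1 was 9.34 in CSF1-Fc liver 3, against a nearest value of 9.64 (ratio 0.863), and Ugt2b1 was 7.74 in the same liver, against 8.44 (ratio 0.925). Both were low there. Gsta6 was instead high in CSF1-Fc liver 3, at 6.42 against 6.17 (ratio 0.933). Gstm6, dim on all arrays, was 3.23 in CSF1-Fc liver 1 and 3.27 in the other 3, which shared 1 repeated value (ratio 1), within a range of 0.0387 log2 units.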

How the results depend on the processing

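Between the livers, the count of members called was 2, 1 in the fit of all 9 arrays (beside 0.131% of all probe sets called lower), 4 of 21 tested when dim probe sets were left out (Gsta4 and Gstm2 added, beside 0.851%) and 3 after quantile normalization (Gstm2 added, beside 0.305%), and it was 0 to 6 when 1 array was left out (6 beside 3.43% without PBS liver 1), with 0 whichever CSF1-Fc liver was left out, when 0 of all probe sets passed too. Where PBS was left with 1 array, that sample was assumed to vary like the other group. With the replicate number as a block 0 members and 0 of all probe sets were called. The limma adjusted p of Gstm7 was 0.543, also the lowest of all probe sets. That fit drew the difference from livers 1 and 2 of each group, as CSF1-Fc livers 3 and 4 had no PBS partner. This left little to estimate the spread from, so the lost calls say little. An unadjusted p under 0.05 was found for 7 of 32 members, beside 7.34% of all probe sets. Same-numbered CSF1-Fc and PBS livers had correlated deviations of 0.02 and 0.18, and differently numbered ones -0.21 to 0.21. Same-numbered samples of the other comparisons had -0.12 to 0.00. The deviations of 2 PBS livers mirror each other, so the check could hardly show pairing of livers. The numbers were not taken to pair the samples. The median difference between the livers was -0.48 to -0.35 with 1 array left out. Members below both PBS livers in every CSF1-Fc liver were 15, 9 with hepatocyte marker centring, and 15 to 22 with 1 array left out (22 beside 33.1% of all probe sets without PBS liver 1, and 19 beside 25.5% without PBS liver 2), settings chosen after seeing the data. Against CSF1-Fc and PBS liver, BMDM calls were 21 to 24 and 17 to 19, and medians -1.85 to -1.53 and -2.22 to -2.03, with 1 array left out, and medians were -2.78 and -3.40 without dim probe sets, which removed members near the floor. Named member values kept direction and call in 723 of the settings, lost the call in 35, gained it in 10 and changed sign in 13. The sign changes were in differences that passed in none of these settings. Between the livers, the log2 difference of Sult1b1 was -0.0319 after quantile normalization, -0.00777 with the replicate block and -0.28 to 0.35 with 1 array left out, and that of Sult6b1 was 0.00409 with hepatocyte marker centring. With 1 array left out Ugt2b35 ranged from -0.54 to 0.25, Gstp1 from -0.49 to 0.70 and Sult1d1 from 0 to 0.0479. Sult1d1 was -0.0398 in BMDM against CSF1-Fc liver after quantile normalization, and Sult5a1 was -0.29 to 0.13 in BMDM against PBS liver with 1 array left out. Quantile normalization moved the median of all probe sets in BMDM against CSF1-Fc liver from 0.14 to 0.02. The cause of these shifts was not tested. No depth is defined for arrays, and 9 members below the array median throughout carry little signal over background.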
